A study of Mus musculus with 2 samples.

Results

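The 37 genes described here encode proteins of the lysosome, among them 9 cathepsins, and were listed by name, with no threshold on a measured value, though with earlier results of these data known, from 55536 annotated genes of the main deposited table, 22028 of them protein-coding. All 37 were matched by symbol. They fall into 7 roles: 6 cysteine cathepsins, 3 other cathepsins (the aspartic proteases and the serine carboxypeptidase), 7 glycosidases, 5 genes of lipid breakdown and transport, 8 membrane proteins, 3 regulators with progranulin, and 5 genes of the proton pump.

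The cells were primary neutrophils taken from the peripheral blood of adult C57BL/6J mice aged 5 to 6 weeks, with no treatment or modified allele in the labels. Total RNA was measured in 2 libraries of this single group, numbered biological replicates 1 and 2. Each came from 100 ng of RNA with a ScriptSeq v2 kit and a size range of 200 to 1000. The labels tie both libraries to the same donor identifier and give no sex, so the spread between them may be technical, and with no second condition the comparisons are among genes and between the libraries.

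Lysosomes are acidic compartments in which hydrolases break down proteins, glycans and lipids, and a membrane pump, the V-ATPase, keeps them acidic. In neutrophils the azurophil granules are related to lysosomes: they carry many of the same hydrolases, which are made mostly while the cells mature in the marrow. The transcription factors TFEB and TFE3 bind short E-box elements in the promoters of many lysosomal genes.

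Expected counts (reads shared out among genes that they match) summed to 22647028 in replicate 1 and 21471719 in replicate 2. Nuclear protein-coding genes held 8.81% and 8.35% of all TPM (a level per transcript length, scaled to the same total in each library), so TPM of a gene is low here compared with a library of messenger RNA alone. Of the cell type markers, all 10 neutrophil markers were detected, that is, at 1 TPM or more in each library, and their TPM summed to 2509.8 and 2541.1. All 10 B cell markers did so too, with sums of 705 and 630 led by Ighm at 290.1 and 261. Monocyte and macrophage markers passed in 7 of 10, with sums of 36.5 and 33.0 led by Csf1r and Ly6c2. Red cell markers passed in 6 of 10, with sums of 4344 and 4278. T cell markers passed in 9 of 10 with sums of 35.0 and 33.7, platelet markers in 5 of 8, eosinophil markers in 3 of 8 with Prg3 at no count, natural killer cell markers in 2 of 8, dendritic cell markers in 1 of 8, and basophil and mast cell markers in none of 8, with Mcpt4 at no count. Other blood cells also make lysosomal RNA. Their part in the levels below was not tested, and in such bulk RNA fewer cells of a type and less RNA per cell cannot be told apart.

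Nearly all the lysosomal genes were present. By this rule 35 of the 37 were detected, against 34.9% of all protein-coding genes. The median level of the 37 was 7.39 TPM in replicate 1 and 7.03 in replicate 2. The median of the protein-coding genes detected by the same rule was 4.43 and 4.16 TPM, and over all annotated protein-coding genes it was 0.12 and 0.11. Of the 37, 25 lay above the median detected gene and 6 ranked in the top 10% of detected genes: Ctss, Psap, Ctsd, Atp6ap1, Laptm5 and Ctsa. Fractional expected counts, which mark reads shared with another gene, were listed for 5 of the 37: Ctsl, Ctsd, Glb1, Cd63 and Atp6v0c. The 6 highest together held 54.3% and 54.2% of the summed TPM of the 37, which was 494 and 475. The 37 genes held 0.538% and 0.564% of the expected counts on protein-coding genes. Gaa, Gla and Glb1, all glycosidases, lay in the lowest 10%. The median expected count per gene was 1609 and 1522, and the smallest counts were 149.7 for Glb1 in replicate 1 and 130 for Cd63 in replicate 2.

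**Figure D1:**
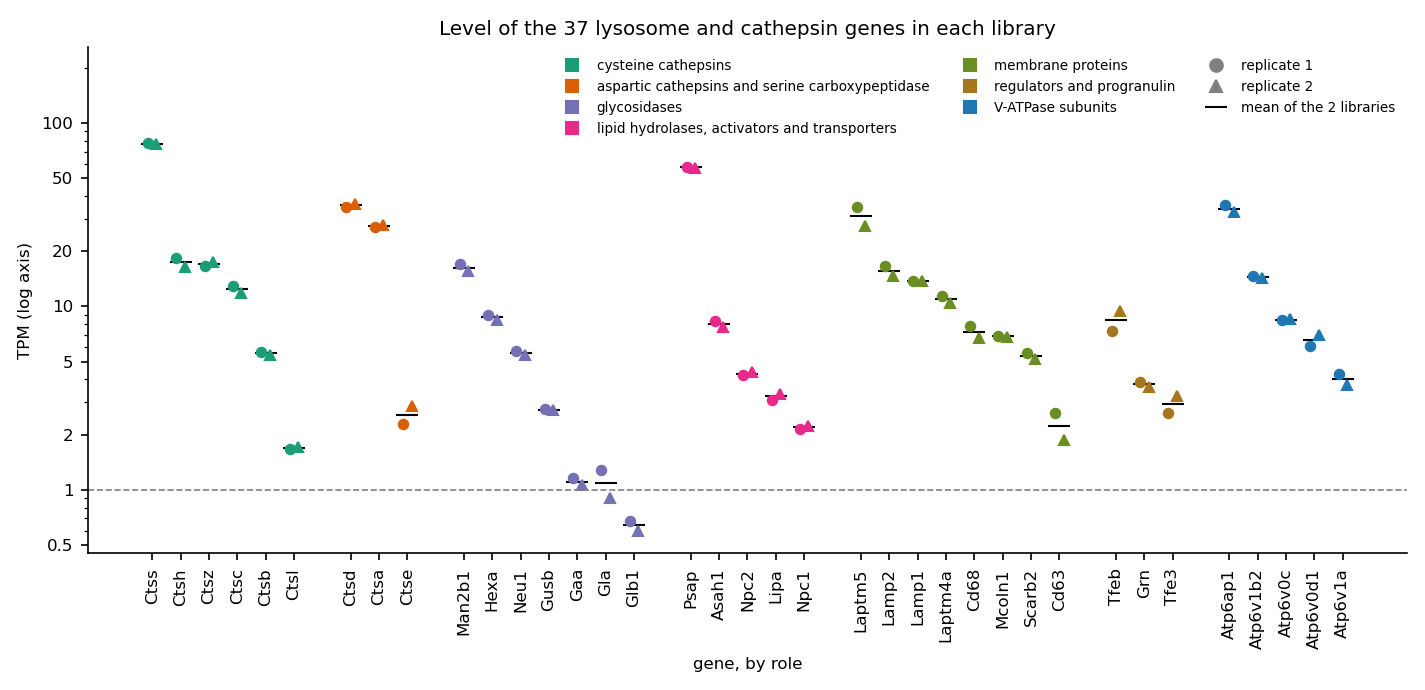
TPM (log axis) of each of the 37 genes in replicate 1 (circles) and replicate 2 (triangles), with the mean of the 2 libraries as a bar, grouped and coloured by role. The dashed line marks a TPM of 1; Glb1 lies under it in both libraries and Gla in replicate 2, while Ctss and Psap stand highest.

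Among the cysteine cathepsins, endopeptidases and exopeptidases of the lysosome, cathepsin S stood far above the rest. Ctss, on chr3:95526786-95556403, was at 77.7 TPM in replicate 1 and 76.7 in replicate 2 (77.2 ± 0.728, SD, n = 2), from 9036 and 9015 expected counts, and it ranked 139 among protein-coding genes. Cathepsin S cuts the invariant chain of MHC class II in antigen-presenting cells and stays active at neutral pH. Ctsh, an aminopeptidase, was at 18.5 and 16.4 TPM over all its transcripts. Ctsz, a carboxypeptidase, was at 16.6 and 17.4, so these neighbours in the order overlapped between the libraries, while the other neighbours did not. Ctsc, the dipeptidyl peptidase that activates the serine proteases of neutrophil granules, was at 13.0 and 11.9 TPM. Ctsb and Ctsl, broad endopeptidases, came last. Ctsb was at 5.66 and 5.47 TPM and Ctsl at 1.66 and 1.71. Ctss exceeded Ctsb 13.7-fold in replicate 1 and 14.02-fold in replicate 2, and exceeded Ctsl 46.8-fold and 44.8-fold. These folds were smaller in the authors' alignment-free table. There Ctss was at 109.3 and 106.0 TPM, Ctsb at 12.9 and 9.80, and Ctsl at 10.1 and 7.26. The median of the 6 genes was 14.8 and 14.1 TPM.

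Cathepsin D was the highest of the other 3 cathepsins. Ctsd, the main aspartic protease of lysosomes, on chr7:142375911-142388038, was at 35.1 and 36.4 TPM (35.7 ± 0.919, SD, n = 2). Ctsa, the serine carboxypeptidase that also protects neuraminidase and beta-galactosidase in a complex, followed at 27.0 and 27.7. Ctse, an aspartic protease of endosomes, was at 2.30 and 2.85 TPM. Its counts, scaled to the library totals, were 1.32 times as high in replicate 2, with a 95% exact binomial interval of 1.158 to 1.497 that covers counting error only. Ctsd stood 15.2-fold and 12.8-fold above Ctse, and no neighbours in this order overlapped between the libraries.

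The level of Ctsd is uncertain. Another protein-coding gene model of the newer annotation, Gm49369 on chr7:142371096-142382667, lies on the same strand and has 2 transcripts, of which 80.4% and 73.7% of the bases fall on exons of Ctsd-202. It was given 2753 and 2635 expected counts, and 42.6 and 40.2 TPM. The older annotation, GENCODE M4, lacks it, and the authors' M4 gene table lists Ctsd at 66.7 and 63.6 TPM. The counts of Ctsd and Gm49369 in the main table added up to 8638 and 8873, beside 8641 and 8872 for Ctsd alone in the M4 table. The reads that the main table split between both genes were thus nearly the same in number as those the M4 table gave to Ctsd.

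The deposited tables also part on which Ctsd transcript is used. Ctsd-202 keeps 18 coding bases at the end of an exon that Ctsd-201 lacks, and both transcripts of Gm49369 have the longer exon as well. The stretch across this junction on the reverse strand of chr7, between 142377141 and 142377380 in GRCm38, is shown with the 18 bases in capitals. The forms also differ elsewhere, as Ctsd-202 is 2127 bases long and Ctsd-201 is 1922.
Ctsd-202: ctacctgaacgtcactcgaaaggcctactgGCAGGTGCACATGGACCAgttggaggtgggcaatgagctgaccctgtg
Ctsd-201: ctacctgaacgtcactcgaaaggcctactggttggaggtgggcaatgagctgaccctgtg
By IsoPct, each transcript's percent of its gene in the aligned transcript table, the shorter form Ctsd-201 took 89.0% in replicate 1 and 81.6% in replicate 2. In the alignment-free transcript table it took 21.9% and 9.88% of the TPM, and the longer form Ctsd-202 took 73.9% and 85.2%. The choice between the forms therefore turned with the table and not with the library.

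The glycosidases, which remove sugars from glycoproteins, glycolipids and glycogen, had the lowest median of the 7 roles in the main table, with a median of 2.75 and 2.73 TPM and 5 of 7 detected. In the alignment-free table the regulators were lower, at a median of 6.22 TPM over the libraries beside 6.705 for the glycosidases. Man2b1, the lysosomal alpha-mannosidase, led in the main table at 17.0 and 15.6 TPM. In the M4 gene table it was at 9.10 and 8.96, below Hexa at 9.80 and 9.18. Hexa, the alpha subunit of beta-hexosaminidase, was at 8.99 and 8.43 in the main table. Neu1, the lysosomal sialidase, was at 5.75 and 5.43, and Gusb, the beta-glucuronidase, at 2.75 and 2.73. The 3 remaining genes lay near or below the detection level. Gaa, which breaks down glycogen, was at 1.16 and 1.06 TPM. Gla, the alpha-galactosidase, was at 1.29 in replicate 1 and 0.90 in replicate 2, and its scaled counts were 0.741 times as high in replicate 2 (interval 0.631 to 0.869). Glb1, the beta-galactosidase, was at 0.68 and 0.60 TPM from 149.7 and 132.1 counts, below 1 in both libraries. The levels of Gaa and Gla overlapped between the libraries, and in the main table Man2b1 stood 24.9-fold and 26.0-fold above Glb1. The fractional counts of Glb1 show that it shares reads, and Tmppe, a gene within its span on the same strand, had 144.3 and 138.9 counts.

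Most Neu1 RNA was assigned to a transcript that keeps an intron. Neu1-202, a retained-intron model, took 83.4% and 82.9% of the gene by IsoPct, 85.7% and 80.7% of the alignment-free TPM, and 92.7% and 91.5% of the alignment-free estimated counts. The coding transcript Neu1-201 took 16.6% and 15.5% by IsoPct, which puts its own level at 0.955 and 0.844 TPM. Neu1-202 differs from it in keeping the whole of intron 3, the 1174 bases at chr17:34932829-34934002 on the forward strand between coding exons. The 2 ends of that intron, read from Neu1-202 with exon in lower case and intron in capitals, are given as annotated; reads across them were not examined.
Neu1 exon 3 into intron 3 (chr17:34932799-34932858): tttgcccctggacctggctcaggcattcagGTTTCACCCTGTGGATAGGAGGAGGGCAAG
Neu1 intron 3 into exon 4 (chr17:34933973-34934032): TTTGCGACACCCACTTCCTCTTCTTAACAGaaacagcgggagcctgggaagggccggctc
Both libraries and all 3 measures placed more than 80% of the gene on this model, a share that no other retained-intron model of the 37 genes reached.

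Of the 5 genes of lipid breakdown and transport, 1 carried most of the level. Psap, on chr10:60277627-60302597, encodes prosaposin, which is cut into the saposins that present sphingolipids to hydrolases. It was at 58.0 and 56.8 TPM (57.4 ± 0.792, SD, n = 2), with the largest counts of the 37 genes, 13709 and 13546, and ranked 204 among protein-coding genes. Asah1, the acid ceramidase, was at 8.31 and 7.77 TPM. Npc2 and Npc1, which pass cholesterol out of the lysosome, were at 4.22 and 4.40 TPM and at 2.14 and 2.24 TPM. Lipa, the acid lipase that frees this cholesterol from its esters, lay between them at 3.11 and 3.35. No pair of neighbours in this order overlapped between the libraries. The median of the 5 was 4.22 and 4.40 TPM. Npc1 overlaps Rmc1 on the opposite strand, which had 1356 and 1229 counts beside 702 and 798 for Npc1. The strand setting of the counting is not given in the sources used here, so reads of the pair may not be fully separated. The same holds for Ctsz and Nelfcd (595 and 512 counts on Nelfcd), Ctsb and Fdft1 (164 and 143) and Ctsa and Pltp (152 and 99).

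All 8 membrane proteins were detected, with a median of 9.62 and 8.67 TPM. Laptm5, a lysosomal membrane protein of blood cells, was highest at 34.7 TPM in replicate 1 and 27.5 in replicate 2 (31.1 ± 5.08, SD, n = 2). Its relative Laptm4a, present in most tissues, was at 11.4 and 10.5. Laptm5 is also made by B cells and monocytes, whose summed marker TPM was lower in replicate 2 as well; their part in this level was not tested. Lamp2 and Lamp1, the abundant glycoproteins that line the lysosomal membrane, were at 16.7 and 14.6 TPM and at 13.8 in both libraries. Cd68, a Lamp-related protein of phagocytes, was at 7.86 and 6.73. Mcoln1, the calcium channel TRPML1, was at 6.92 and 6.83, and overlapped with Cd68. Scarb2, also called LIMP-2, carries glucocerebrosidase to the lysosome and was at 5.58 and 5.18 TPM. Cd63, a tetraspanin that marks azurophil granules, was lowest at 2.62 and 1.86 TPM from 250.2 and 130 counts. Its scaled counts were 0.548 times as high in replicate 2 (interval 0.440 to 0.681).

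Lamp2 has alternative last exons that change the membrane anchor and the tail of the protein. Lamp2-202 took 66.0% and 69.2% of the gene by IsoPct, Lamp2-201 took 16.6% and 13.5%, and Lamp2-203 took 1.12% and 2.07%. In the alignment-free table the order was the same, with 54.3% and 56.2% of the TPM on Lamp2-202, 24.7% and 21.9% on Lamp2-201, and 3.15% and 3.69% on Lamp2-203. The last exons lie at chrX:38419507-38421851, chrX:38405062-38405571 and chrX:38401357-38402281 on the reverse strand. To show how the 3 endings differ, the last 15 bases of the shared exon are given in lower case and the first 90 coding bases of each last exon in capitals.
Lamp2-202: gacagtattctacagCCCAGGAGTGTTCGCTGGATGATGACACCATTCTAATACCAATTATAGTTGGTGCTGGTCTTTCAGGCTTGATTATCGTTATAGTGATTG
Lamp2-201: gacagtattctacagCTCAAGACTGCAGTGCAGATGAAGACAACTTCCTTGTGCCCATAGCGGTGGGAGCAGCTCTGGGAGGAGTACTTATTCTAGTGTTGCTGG
Lamp2-203: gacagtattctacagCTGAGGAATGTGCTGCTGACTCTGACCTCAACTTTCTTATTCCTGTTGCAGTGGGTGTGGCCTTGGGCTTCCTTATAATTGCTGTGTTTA
Position by position, 49 of these 90 bases were identical between Lamp2-202 and Lamp2-201, 43 between Lamp2-202 and Lamp2-203, and 38 between Lamp2-201 and Lamp2-203. This count allowed no gaps. The last exon holds 140 coding bases in Lamp2-203 and 137 in both Lamp2-202 and Lamp2-201. The counts with Lamp2-203 may therefore be out of register, and they do not rank the similarity of the endings.

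Mcoln1, like Neu1, had much of its level assigned to retained-intron models. Retained-intron models took 62.0% and 65.0% of the gene by IsoPct and 76.9% and 70.1% of the alignment-free estimated counts. The leading one, Mcoln1-205, took 32.8% and 34.2% by IsoPct, Mcoln1-203 took 23.5% and 27.8%, and the coding Mcoln1-201 took 14.01% and 21.7%. Intron 12 of 13 in Mcoln1-201, at chr8:3512866-3514782 on the forward strand between coding exons, is 1917 bases long. Mcoln1-203 runs into its first 157 bases and ends at 3513022, and Mcoln1-205 starts at the next base and covers the remaining 1760. The pair of models together therefore spans the whole intron, but neither covers it alone, unlike Neu1-202 and its intron. The ends are shown as annotated with intron in capitals, and reads across them were not examined.
Mcoln1 exon 12 into intron 12 (chr8:3512836-3512895): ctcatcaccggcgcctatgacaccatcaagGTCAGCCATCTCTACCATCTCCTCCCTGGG
Mcoln1 intron 12 into exon 13 (chr8:3514753-3514812): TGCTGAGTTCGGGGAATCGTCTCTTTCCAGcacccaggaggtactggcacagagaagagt
On coding transcripts alone, by IsoPct, Mcoln1 was at 2.63 and 2.39 TPM, beside 6.92 and 6.83 for the whole gene.

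The 3 genes of regulation and progranulin had a median of 3.88 and 3.66 TPM. Tfeb, on chr17:47737030-47792419, was at 7.39 TPM in replicate 1 and 9.46 in replicate 2, and its relative Tfe3 at 2.64 and 3.26. Both were higher in replicate 2, and Tfeb stood 2.80-fold and 2.90-fold above Tfe3. The scaled counts of Tfeb were 1.20 times as high in replicate 2 (interval 1.11 to 1.29). Grn, whose product progranulin supports lysosomal enzymes and was first described as the source of neutrophil granulins, was at 3.88 and 3.66. Retained-intron and processed transcripts held 64.8% and 64.5% of Tfe3 by IsoPct and 71.1% and 75.0% of its alignment-free estimated counts. On coding transcripts Tfe3 was at 0.910 and 1.16 TPM by IsoPct. For Tfeb the same quantity was 6.91 and 8.03 TPM, so the coding part of Tfeb exceeded that of Tfe3 in both libraries.

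The core of the element that TFEB and TFE3 bind is CACGTG, which reads the same on both strands. It was searched in RefSeq promoter windows of 250 bases before to 50 bases after a gene's start (GRCm38.p6). Windows were searched for 31 of the 37 genes. Asah1, Atp6v1b2, Ctsb, Ctse and Ctsh were not matched, and Npc1 was set aside before the search by its position in the genome. The comparison shares below were not filtered by position, so they were not built in quite the same way. Of the 31, 10 held the core (32.3%): Ctsl, Ctsd, Ctsa, Gaa, Gla, Glb1, Lamp1, Mcoln1, Atp6v0d1 and Atp6v1a. Among all genes of the table the share was 8.09%, and among the protein-coding genes detected here it was 12.5%. The longer palindrome TCACGTGA, which contains the core, occurred in 6 of the 31 (19.4%), against 2.78% of detected protein-coding genes. The 31 include Gla and Glb1, which were not detected here. Both held the core and Gla also the longer palindrome, so the shares of detected genes come from an unlike set. The 17 cores lay in cathepsin, glycosidase, membrane and pump genes, 16 of them starting before the start. These are matches of letters in a window, and no binding was measured. The 8 longer palindromes are shown with the core in capitals, each written along its gene's strand.
Ctsa first match (chr2:164833749-164833778): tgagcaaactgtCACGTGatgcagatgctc
Ctsa second match (chr2:164833766-164833795): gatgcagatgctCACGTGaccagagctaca
Ctsd (chr7:142387908-142387937): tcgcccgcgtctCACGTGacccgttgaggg
Mcoln1 (chr8:3500462-3500491): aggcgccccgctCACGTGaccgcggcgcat
Atp6v0d1 (chr8:105566050-105566079): ccctactgcggtCACGTGagacgcggtgcg
Atp6v1a (chr16:44139373-44139402): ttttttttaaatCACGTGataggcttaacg
Gla first match (chrX:134601215-134601244): taagcgattgatCACGTGagcatctacgtc
Gla second match (chrX:134601182-134601211): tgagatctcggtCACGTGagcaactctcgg

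Lamp1 held the most cores, with 4 starting 61, 45, 28 and 15 bases before its start and none of them within the longer palindrome. The 73 bases at chr8:13159088-13159160, which end at the base before the start, show their spacing.
Lamp1 promoter: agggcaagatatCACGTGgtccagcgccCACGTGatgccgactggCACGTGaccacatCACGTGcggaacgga
The 10 genes with it ranged from 0.64 (Glb1) to 35.7 TPM (Ctsd), with a median of 5.19 and 5.28. The searched genes without it ranged from 2.24 (Cd63) to 77.2 TPM (Ctss), with a median of 8.44 and 8.50. The ranges thus overlapped widely. In the main table the 3 lowest of the 37 genes, Glb1, Gla and Gaa, all held a core. Ctss and Psap, the 2 highest there, held none in these windows. These ends of the order changed with the table. In the M4 gene table Ctsd, which held a core, was at 66.7 and 63.6 TPM, above Psap at 58.65 and 57.5. In the alignment-free table Gla, at 8.93 and 4.01 TPM, lay above Cd63 at 4.74 and 3.21, which held no core.

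**Figure D2:**
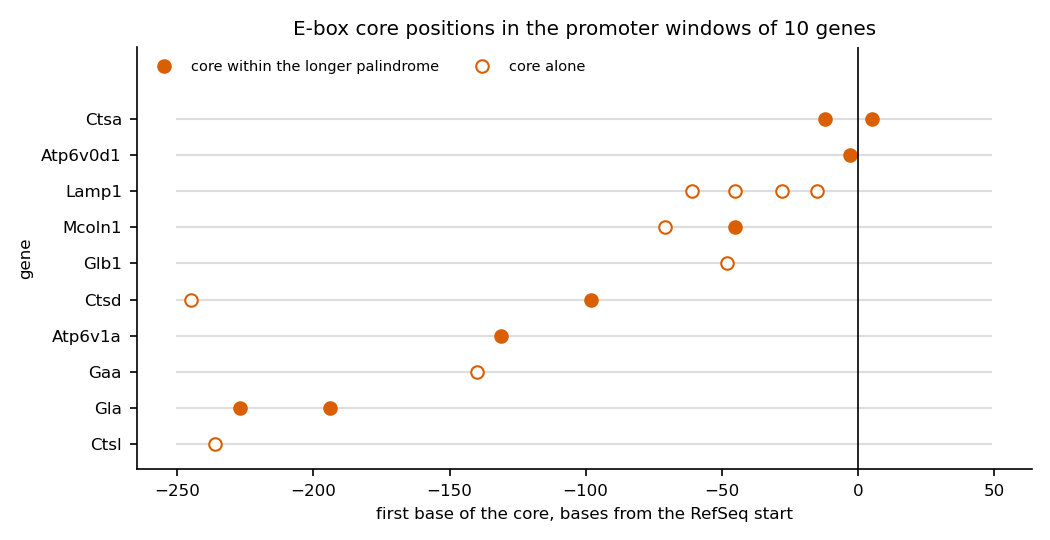
Position of each CACGTG core (first base, in bases from the RefSeq start at 0) in the promoter windows of the 10 genes that hold it; grey lines span the window. Filled points mark cores within the longer palindrome and open points the core alone; Lamp1 has 4 cores close to its start, and only 1 core of Ctsa lies after a start.

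The genes of the V-ATPase, which pumps protons into the lysosome and other compartments, had a median of 8.44 and 8.50 TPM. Atp6ap1, an accessory subunit needed for assembly, was highest at 35.7 and 32.6 TPM. In the catalytic V1 sector, Atp6v1b2, the B2 subunit, was at 14.8 and 14.2, and Atp6v1a, the subunit A that binds ATP, at 4.27 and 3.73. In the membrane V0 sector, Atp6v0c, which forms the proton-carrying ring, was at 8.44 and 8.50, and Atp6v0d1, which links ring and stalk, at 6.11 and 7.03. The levels of the 5 subunits did not overlap between neighbours in this order, and Atp6ap1 stood 8.37-fold and 8.74-fold above Atp6v1a. Of Atp6ap1, 32.0% and 34.3% by IsoPct was assigned to Atp6ap1-206, a processed transcript of 349 bases that took only 6.99% and 6.02% of the alignment-free estimated counts.

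Between the libraries no gene of the 37 differed by a fold of at least 2 in TPM + 1, among the 36 that had 1 TPM and 50 counts or more in either library. Of the 8157 protein-coding genes above the same minimum, 0.159% passed that fold. The median log2 ratio of TPM + 1, replicate 2 over replicate 1, was -0.04 over these genes and -0.08 over all protein-coding genes with the same minimum. It ran from -0.34 for Cd63 to 0.32 for Tfeb. Of the 37 genes, 12 were higher in replicate 2 and 25 lower. Among the protein-coding genes above the same minimum, 68.6% were lower, which is close to the share of the 37. The 95% intervals of the count ratio covered 1 for 17 genes and lay above it for 15, against 17.7% of the protein-coding genes above that minimum. They lay below 1 for 5 (Gla, Lamp2, Cd63, Laptm5 and Atp6v1a), against 24.5%. The authors' own bounds of each TPM did not overlap between the libraries for 10 genes: Ctsh, Ctse, Gla, Man2b1, Lamp2, Cd63, Cd68, Laptm5, Tfeb and Atp6v0d1. The same was true of 26.9% of the protein-coding genes above the minimum, a share near that of the 37.

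**Figure D3:**
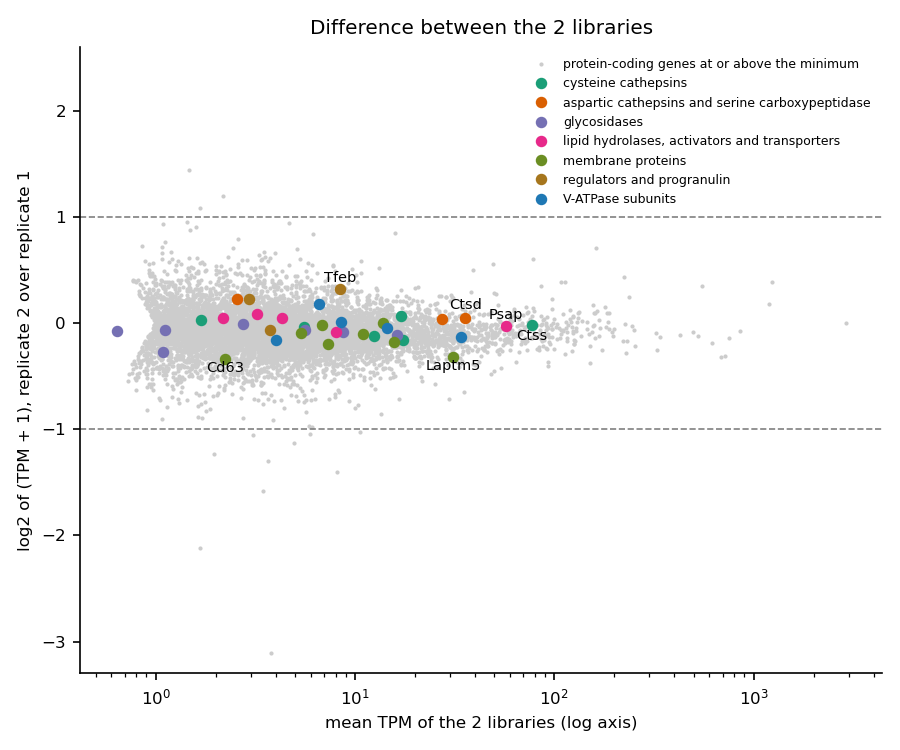
Log2 ratio of TPM + 1, replicate 2 over replicate 1, against the mean TPM of the 2 libraries (log axis), for the 37 genes by role (colours) and for protein-coding genes above the same minimum (grey). Dashed lines mark a fold of 2; the 37 genes lie between -0.34 (Cd63) and 0.32 (Tfeb), inside those lines.

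The level of most of the 37 genes was nearly the same under the older gene models. The authors' M4 gene table was within 10% of the main one in both libraries for 29 genes. It was over 1.5 times off in both for 3: Ctsd (above), Man2b1 at 9.10 and 8.96 TPM beside 17.0 and 15.6, and Scarb2 at 8.40 and 8.08 beside 5.58 and 5.18. The expected counts of Scarb2 went the other way, at 1578 and 1533 in the M4 table beside 2446 and 2264. Mcoln1 stayed within that limit by TPM, but its counts were 406 and 458 in the M4 table beside 831 and 906. The alignment-free table, with both tables rescaled to protein-coding genes, gave a median ratio of 0.923 and 0.937 to the main table. Only Ctsl and Gla reached a ratio of at least 2 in both libraries. In that table Gla-202, a coding model of 337 bases, took 71.7% and 59.3% of the TPM of Gla but 13.1% and 8.27% of its estimated counts, and IsoPct gave it 0. Likewise Ctsl-202, a retained-intron model of 364 bases, took 43.8% of the TPM of Ctsl in both libraries and 10.4% and 8.75% of the estimated counts. The alignment-free estimated counts of Ctsl as a whole were 669.8 and 610.8, beside 285.8 and 304.8 expected counts in the main table.

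**Figure D4:**
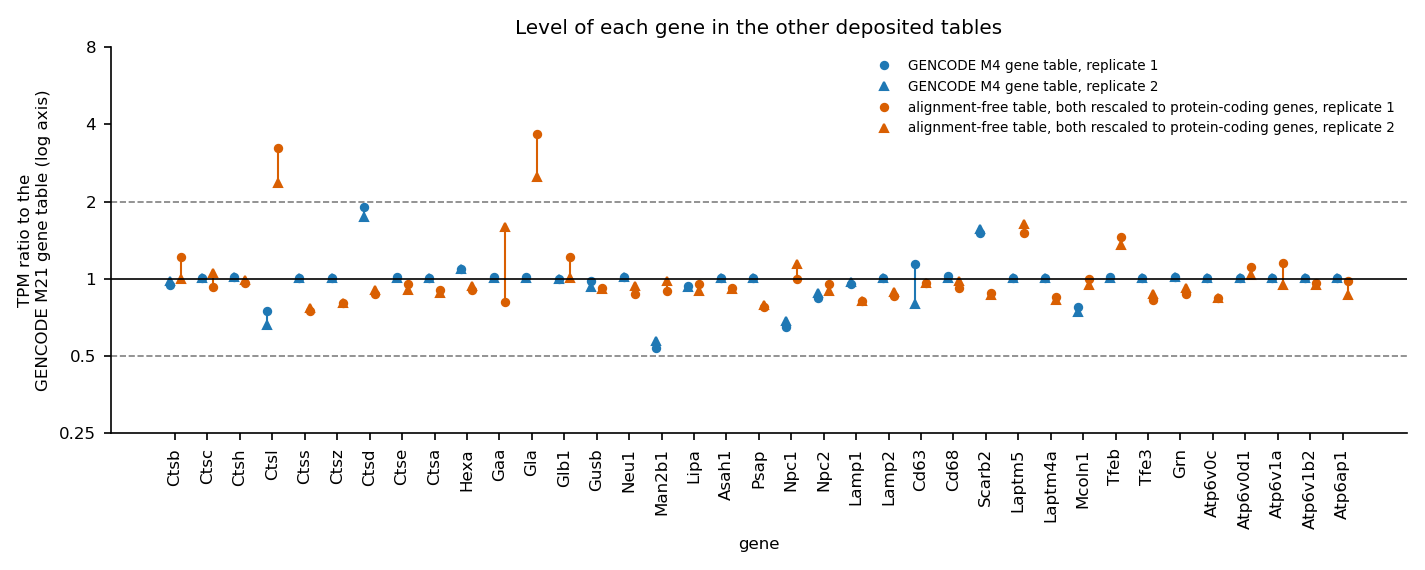
Ratio of each gene's TPM in 2 other deposited tables to the main GENCODE M21 gene table (log axis), replicate 1 as circles and replicate 2 as triangles, joined by a line: the GENCODE M4 gene table (blue) and the alignment-free table with both tables rescaled to protein-coding genes (orange). Most genes lie near 1; Ctsd lies near 2 in the M4 table, Man2b1 near 0.5, and Ctsl and Gla lie above 2 in the alignment-free table.

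The 37 genes have 214 annotated transcripts, and Ctsz, Hexa and Laptm4a have 1 each. In 27 genes the same transcript took at least 50% of the gene by IsoPct in both libraries, against 52.2% of detected protein-coding genes. In 26 genes the leading transcript was the same in both transcript tables and both libraries, against 57.7% of detected protein-coding genes. The 11 others were Ctsh, Ctsl, Ctsd, Ctsa, Gaa, Gla, Gusb, Cd63, Tfeb, Tfe3 and Atp6v1a. Cd63 had different leading transcripts in the libraries: Cd63-202, a coding model, took 82.4% of it by IsoPct in replicate 1 and 0% in replicate 2, where Cd63-203, a processed transcript, took 51.1%. The alignment-free table gave Cd63-202 52.4% and 0%. Gusb was led by the coding Gusb-201 at 33.4% in replicate 1 and by Gusb-206, a model of nonsense-mediated decay, at 44.3% in replicate 2. Ctsh was led by IsoPct by Ctsh-202, also a decay model, at 37.6% in replicate 1 and by the coding Ctsh-201 at 38.4% in replicate 2. In the alignment-free table Ctsh-201 led in both, at 40.5% and 48.7% of the TPM. On coding transcripts alone, by IsoPct, Ctsh was at 6.57 and 7.39 TPM. That is below Ctsz at 16.6 and 17.4 and Ctsc at 9.79 and 9.65 by the same measure. Atp6v1a-202 led by IsoPct at 77.7% and 71.7%, while the alignment-free table divided the gene between it, at 25.3% and 42.2%, and Atp6v1a-201, at 34.4% and 32.5%. Tfeb-202 led Tfeb by IsoPct at 35.8% and 36.3%, and Tfeb-215, a retained-intron model of 324 bases, led it by alignment-free TPM at 26.5% and 34.0%. Gaa-201 led Gaa by IsoPct at 53.8% and 69.1%, but Gaa-206, a processed transcript of 241 bases, took 0% of the alignment-free TPM in replicate 1 and 44.5% in replicate 2.

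Total RNA holds RNA that is not fully spliced. At least 20% of the alignment-free TPM fell on retained-intron and processed transcripts in both libraries in 19 of the 37 genes, against 55.8% of detected protein-coding genes, a share near the background. By IsoPct 11 of the 37 passed, against 46.2%, and by alignment-free estimated counts 10 passed, against 34.7%. By all 3 measures 7 genes passed, against 30.5% of detected protein-coding genes: Ctsh, Neu1, Man2b1, Asah1, Npc1, Mcoln1 and Tfe3. More than 50% in both libraries was reached by all 3 measures in Neu1, Mcoln1 and Tfe3, against 5.98%. Tfe3 had no dominant transcript, with Tfe3-212 leading by IsoPct at 18.8% in replicate 1 and Tfe3-213 at 21.6% in replicate 2, both retained-intron models. Npc1 was at 58.0% and 54.2% by IsoPct and at 40.6% and 39.2% by estimated counts. Ctsa was at 55.9% and 56.9% by IsoPct but at 14.8% and 16.0% by estimated counts. In the genes named next, which passed by alignment-free TPM, the leading transcript by IsoPct was coding in both libraries. Ctsb-201 held 93.8% and 97.3%, Atp6v0d1-201 98.1% and 93.05%, and Npc2-201 79.3% and 81.4%. Atp6v1b2-201 held 69.8% and 72.3%, Asah1-201 67.2% and 64.4%, and Laptm5-207 65.05% and 72.3%. Lower shares were held by Man2b1-201 at 57.7% and 61.8%, Ctsc-201 at 51.5% and 57.8%, Atp6ap1-201 at 47.2% and 49.7%, Npc1-201 at 42.0% and 45.8%, and Ctsl-201 at 57.05% and 39.2%. Cd68 has a processed transcript, Cd68-203, which took none of the gene by any measure. Ctss, Psap, Gla, Hexa, Ctsz and Laptm4a have only coding models, and Glb1 has a coding and a decay model. For these genes the annotation left no retained-intron or processed model to hold a share. Counting coding transcripts only, by IsoPct, 31 of the 37 genes were at 1 TPM or more in each library, against 29.6% of all protein-coding genes and 84.8% of those detected on all transcripts. Neu1, Npc1, Cd63 and Tfe3 joined Gla and Glb1 below 1 TPM in at least 1 library.

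The share of Ctsa turned on 1 short model. Ctsa-208, a retained-intron model of 380 bases, took 41.0% and 38.5% of the gene by IsoPct and 32.0% and 36.6% of the alignment-free TPM, but 6.16% and 7.06% of the estimated counts. The coding Ctsa-202, of 2534 bases, took 73.1% and 70.8% of those counts. Ctsa-208 runs from exon 11 of Ctsa-202 into the first 164 of the 580 bases of intron 11, at chr2:164837497-164838076, and the start of that stretch is shown with intron in capitals.
Ctsa exon 11 into intron 11 (chr2:164837467-164837526): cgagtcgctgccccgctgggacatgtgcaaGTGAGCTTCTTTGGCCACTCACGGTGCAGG
A share per TPM thus weighed this short model more than a share of reads did.

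**Figure D5:**
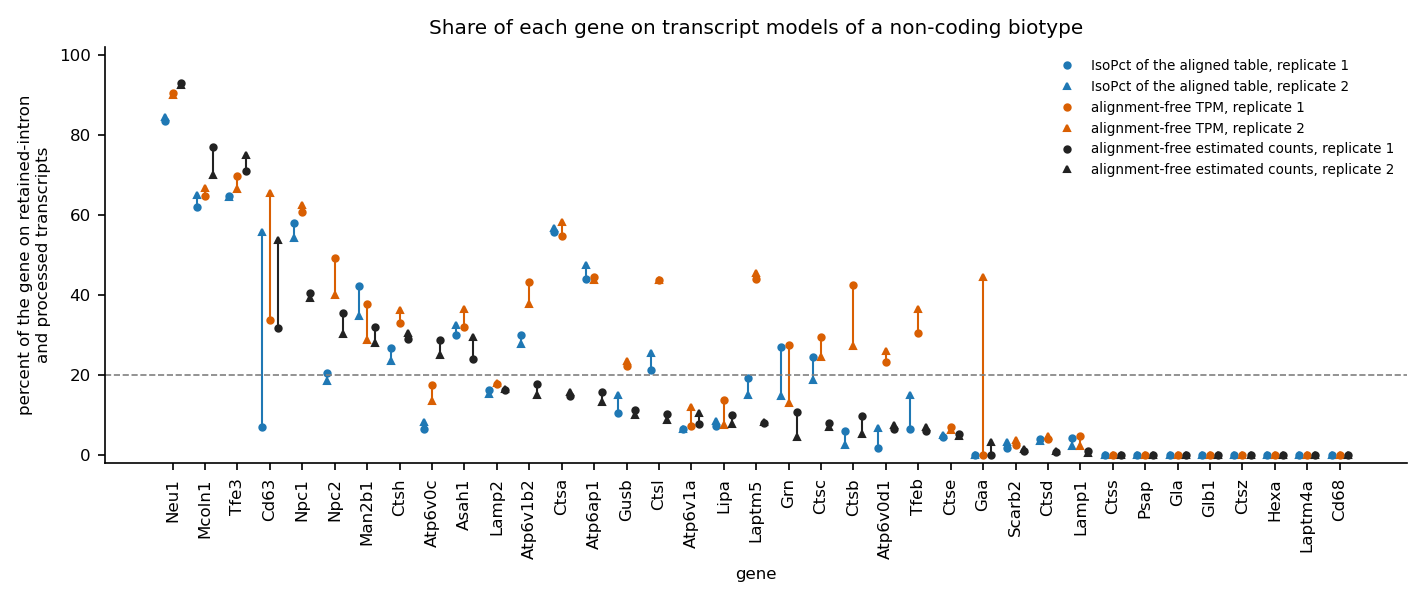
Percent of each gene on retained-intron and processed transcripts by 3 measures (IsoPct in blue, alignment-free TPM in orange, alignment-free estimated counts in black), replicate 1 as circles and replicate 2 as triangles, joined by a line. The dashed line marks 20%; Neu1, Mcoln1 and Tfe3 lie above 50% by every measure, while Ctsa, Atp6ap1 and Ctsl lie above 20% by TPM and below it by counts.

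Beyond the 37 genes, 105 others of the lysosome were placed in 7 lists by function, and 78 were detected. Enzyme delivery and vesicle fusion was complete at 14 of 14. Lyst, which controls the size of lysosomes and granules, led it at 39.8 and 36.2 TPM, below only Ctss and Psap of the 37 in replicate 1 and below Ctsd as well in replicate 2. M6pr, the small mannose-6-phosphate receptor, was at 13.4 and 11.4 beside Ap3b1 at 9.65 and 8.23. Sumf1, which activates sulfatases, was lowest at 1.20 and 1.54. Of the other V-ATPase genes 12 of 14 passed, led by Atp6v0e at 22.9 and 20.5 TPM, Atp6v1e1 at 16.5 and 13.0, and Tcirg1 at 13.6 in both. Atp6v0d2 and Atp6v1b1, alternative subunits of Atp6v0d1 and Atp6v1b2 in other tissues, had no count.

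Other hydrolases and their activators passed in 17 of 24. Fuca1, the fucosidase, was at 31.5 and 29.99 TPM, Ppt1, which removes palmitate from proteins, at 18.8 and 17.95, and Gm2a, the activator of ganglioside breakdown, at 13.7 and 12.6, while Acp2 and Arsb stayed under 1 in both. Fuca1 thus exceeded each of the 7 glycosidases among the 37 genes. Other lysosomal membrane proteins passed in 15 of 20, led by the peptide transporter Slc15a4 at 21.3 and 22.3 TPM, Litaf at 17.9 and 17.0, and Slc11a1, the metal transporter of phagocytes, at 14.1 and 12.0. Laptm4b, the third gene of the Laptm family, was lowest at 0.28 and 0.09, beside 34.7 and 27.5 for Laptm5.

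Other lysosomal peptidases were sparser, with 5 of 10 detected: Ctso led at 6.65 and 6.24 TPM, then Lgmn, the asparaginyl endopeptidase, at 5.38 and 5.22, and Scpep1 at 2.74 and 3.27. Ctsk, Cpq and Ctsf were at or below 0.24 TPM, and Ctsg, the granule serine protease that Ctsc activates, had no count, where 3 counts would be 0.132 and 0.140 CPM (counts scaled to a library total of 1000000). Cystatin and stefin inhibitors of cysteine cathepsins passed in 4 of 10, led by Cst3 at 30.5 and 29.8 TPM and Stfa2l1 at 22.0 and 20.1, with Cstb at 3.51 and 3.30. The stefin genes are near-identical copies whose reads may be split among them, and BC117090 had no count. Other regulators passed in 11 of 13, led by Lamtor3 at 8.60 and 7.30 TPM, Lamtor1 at 5.60 and 6.28, and Lamtor2 at 5.72 and 5.54, parts of the complex that holds mTORC1 at the lysosome. Mitf and Tfec, the other relatives of Tfeb, were at 0.86 and 0.56 and at 0.02 and 0.01 TPM, both below Tfe3 in each library.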

How the data were processed

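The authors deposited, per the file headers, a gene table per library with an expected count, a TPM and bounds of an interval of that TPM for each gene, on GENCODE M21 (main) and on GENCODE M4, a matching transcript table with the percent of a gene on each transcript (IsoPct), and an alignment-free transcript table with an estimated count and a TPM. The file list deposited with each library gives the mm10 assembly. The bounds are values of the signal kind in the TPM scale, as deposited. For programs, versions and the strand setting: not given in the sources used here. Entries without a gene held 0.000163% and 0.000216% of the counts and were left out.

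Levels are TPM per library, with mean ± SD over the 2 libraries. Detected means 1 TPM or more in both. Ratios between libraries used TPM plus a pseudocount of 1, a minimum of 50 expected counts and a fold of 2. Expected counts were rounded for exact binomial intervals at 95% (scipy 1.17.1), for TMM factors (edgeR 4.0.16) and for size factors (DESeq2 1.42.0), which served only as scalings. With 1 group no test between groups was run. The script for the fold rule was checked on simulated data, with changes larger than a fold of 2 planted in genes well above the detection level. The check does not cover smaller changes or genes near that level. Intervals cover counting error only. Coordinates and biotypes are from GENCODE M21 (GRCm38), intron sequence from its transcripts, promoters from RefSeq.

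The 37 genes and the lists were chosen with earlier results of these data known. Every gene of the 37 is named. Of each further list the 3 highest, the lowest and up to 3 under 1 TPM in both libraries are named, and of each marker list those that lead or have no count. Transcripts are named where tables or libraries differ in the leading one, or where the non-coding share is at least 20%. Lamp2 transcripts were chosen after their values were seen.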

Additional observations from a re-analysis of the deposited data

How the results depend on the processing

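No paired analysis was possible because the libraries form a single group. Detection of the 37 genes ran from 24 (a TPM of at least 5) to 37 over the alternatives and from 35 to 36 with either library left out. The median TPM of the 37 was 7.945 in the M4 gene table, 13.1 in the alignment-free table and 84.0 with TPM rescaled to nuclear protein-coding genes, against 7.21, and from 7.03 to 7.39 with a library left out. By role, the M4 table moved the median to 2.62 TPM for glycosidases, 3.72 for lipid genes and 8.57 for the V-ATPase. The alignment-free table gave medians of 23.8 TPM for cysteine cathepsins, 44.7 for the other cathepsins, 6.705 for glycosidases, 7.34 for lipid genes, 14.8 for membrane proteins, 6.22 for regulators and 13.2 for the V-ATPase. Rescaling gave, in the same order, 168.8, 319.3, 31.95, 50.3, 106.5, 43.9 and 98.8 TPM. Rescaling multiplies every gene of a library by 1 number, so it changes no order within a library. Of the 37 genes, 0 passed the fold of 2 between libraries under every alternative tried. A fold of 1.5 was tried only on TPM + 1 of the main table, and 0 passed it. By other measures Cd63 differed more: its scaled counts were 0.548 times as high in replicate 2. In the M4 table Cd63 was at 2.99 TPM in replicate 1 and 1.49 in replicate 2. Their median log2 ratio, -0.04, turned to 0.06 with counts scaled by totals, 0.08 with TMM and 0.08 with DESeq2 size factors, and was -0.07 in the M4 and -0.08 in the alignment-free table. Over protein-coding genes it was -0.02 by totals, 0.005 by TMM and -0.002 by DESeq2, so the sign is not settled. Genes with at least 20% on non-coding biotypes fell from 19 to 11 by IsoPct and to 10 by estimated counts, an alternative chosen after seeing the data, and were 20 with either library left out. The share with the longer palindrome was 19.4%, against 32.3% for the core. The cause was not tested for any of these moves. With n = 2 the SD of a gene rests on 1 degree of freedom.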
